A study of Gallus gallus with 13 samples.

Results

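Primary chicken embryo fibroblasts leave the cell cycle when they fill the dish, when serum is withdrawn, or under both conditions, and the genes that stood apart from cycling cells in every such culture are described here. The arrested cultures were hybridised to 10 Affymetrix chicken arrays and the cycling cultures to 3. A probe set was assigned to the arrest core if its values on all 10 arrested arrays lay above, or all lay below, its values on all 3 cycling arrays. Of 28270 probe sets that passed a filter on mean level, 2605 were higher on every arrested array (9.21%) and 2187 were lower on every arrested array (7.74%). With the brightest probe set standing for each gene, the core held 1128 genes on the higher side (9.81%) and 1300 on the lower side (11.3%), of 11498 genes in all. A further 1020 core probe sets had no or several gene symbols and were counted but not named. Before the filter, 2768 and 2430 of 37693 chicken probe sets met the rule.

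The fibroblasts were prepared from day 10 White Leghorn embryos, kept at 41.5 °C in medium with 5% serum and used below passage 10. Contact-inhibited cells (4 arrays) had reached full confluence and were given new medium with serum. Serum-starved cells (3 arrays) were growing when their medium was replaced by one without serum. Confluent-starved cells (3 arrays) were grown to confluence first and then deprived of serum. Cycling cells (3 arrays) were harvested while dividing in serum. From each culture 15 µg of RNA was used, and all RNA integrity numbers were 9.7 or above. The arrays are called biological replicates, with no statement on separate embryos, so each p-value reflects only how far these arrays spread.

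Quiescence is a reversible exit from the cell cycle, usually from G1. In mammalian fibroblasts it is known for low E2F and MYC output, reduced ribosome production and a raised output of matrix and lysosomal proteins, while inhibitors of cyclin-dependent kinases hold the pocket proteins in their active, E2F-binding form. Contact and the loss of mitogens reach this state through different signals, through adhesion and Hippo signalling on one side and the loss of ERK and AKT activity on the other. The comparison asks which transcripts are common to these routes in avian cells.

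Values are deposited probe set signals, and changes are differences of log2(signal + 16), which understate the change of dim genes. The arrested minus cycling change weights the 3 arrested groups equally and is given with its standard error from a limma fit of all 13 arrays. Because the core was chosen on these same values, the signals and changes of its genes describe them and carry no separate test. Words such as rose and fell are used of genes that limma called in the fit over all probe sets, at an adjusted p under 0.05. That fit called 5462 probe sets higher (19.3%) and 3845 lower (13.6%), or 2222 genes higher (19.3%) and 2171 lower (18.9%). With each array centred on its median, the share of calls that were higher was 44.3%, against 58.7% as deposited, and the core held 1786 probe sets on the higher and 2897 on the lower side. The median change of all probe sets was 0.05 as deposited, -0.06 after centring and -0.02 after quantile normalization. Values come from bulk RNA, in which fewer cells of a type and less RNA per cell cannot be told apart.

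Median chicken probe set signal lay between 63.0 and 68.9 on the arrested arrays, at 64.3 and 62.3 on cycling replicates 1 and 2, and at 52.1 on cycling replicate 3. That replicate also had an actin 3'/5' signal ratio of 2.41, against 1.27 to 1.89 on the other 12 arrays. Without it 3340 probe sets were higher and 3234 lower on every arrested array, 1.37 times the core in all, the most that leaving out 1 array added. Without cycling replicate 1 or 2 the core was 1.29 and 1.27 times as large. Leaving out 1 arrested array gave 1.01 to 1.18 times. Contact-inhibited replicate 1 stood apart from its group at a number of genes below. Probe sets annotated to the W chromosome, which females carry, averaged 6.28 on the log2 scale on contact-inhibited replicate 1. They averaged 7.19 to 7.30 on contact-inhibited replicates 2 to 4 and 5.98 to 6.66 on the starved arrays. On the cycling arrays the mean was 7.07 to 7.12. The W-linked level was thus lower on all starved arrays and on contact-inhibited replicate 1, and its part in the results was not tested. Contact-inhibited replicates 2 to 4, whose mean W-linked levels were close to those of the cycling arrays, were also set against those arrays alone. There limma called 901 of the 1128 higher and 1128 of the 1300 lower core genes in the same direction. Median changes were 0.84 and -0.81. In that fit 15.9% of all genes were called higher and 19.2% lower. The core rule used these arrays and fixed the direction, so the counts are a description and no check of the core. Of 12 tested W-linked genes, 2 were in the core on the higher side (MBD2 and NEDD4L) and 2 on the lower side. MBD2 had 2061 to 2200 on confluent-starved arrays, where HINTW had 0 to 0.85, against 799 to 1315 on cycling arrays. LOC107049459 had 97.5 to 112 on contact-inhibited replicates 2 to 4, against 182 to 224 on cycling arrays. LOC430910 had 215 to 287 on contact-inhibited replicates 2 to 4 and 266 to 309 on cycling arrays. On contact-inhibited replicate 1 it had 9, and on the starved arrays 4.45 to 48.3. How far the mean W-linked level measures female cells was not tested. Of 546 Z-linked genes, 56 were higher and 51 lower core genes, shares near those of all genes (9.81% and 11.3%).

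Fibroblast markers were abundant in every group. The summed signal of 11 fibroblast markers, collagens and VIM among them, was 104719 to 111597 in contact-inhibited, 112558 to 122082 in serum-starved and 116868 to 122243 in confluent-starved cells, against 97096 to 106677 in cycling cells. Among them only PDGFRA was dim, at 24.6 to 76.8. COL1A1, the main chain of type I collagen, was no core gene (0.13 ± 0.10, limma adjusted p = 0.326). Markers of muscle, endothelium, leukocytes, neural cells and red cells summed to at most 746 on any array. None of the markers measured was listed at 0. Markers of cartilage, epithelium and adipocytes moved with groups and are given below beside the genes that carried them.

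Most core changes were moderate in size. Of the core genes, 405 were at least 2-fold higher and 359 at least 2-fold lower, while 52 and 59 changed by at least 4-fold and 13 and 18 by at least 8-fold. A change under 1.5-fold was seen for 281 higher and 405 lower core genes. Limma called 1098 of the higher and 1259 of the lower core genes, but a further 1124 and 912 called genes overlapped between the arrays. These calls concern the mean of the routes. With each route set against cycling cells by itself, 705 of the 1128 higher and 781 of the 1300 lower core genes were called in all 3. The share of probe sets in the core grew with brightness, at 8.33%, 13.5%, 19.4% and 26.6% over the 4 bins of equal size by mean level. Where a gene of the core had several tested probe sets, all of them had the same sign for 555 of 679 higher and 430 of 636 lower genes. All of them were in the core for only 188 of these higher and 128 of these lower genes. A probe set in the core on the other side was found for 8 and 13 genes. Some genes named below also had probe sets outside the core. E2F7, SRF, SESN3, FARSB, EIF2B3 and GPRC5B were in the core on 1 of 2 tested probe sets, and URB1 on 1 of 3. ZFP36L1 and UQCRB were in it on 2 of 3, ID2 on 3 of 4 and CDK6 on 3 of 5.

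On each array the core genes stood at a characteristic distance from the cycling mean. For the higher core genes the median distance was 0.78 to 0.91 on contact-inhibited, 0.64 to 0.76 on serum-starved and 0.87 to 0.93 on confluent-starved arrays, against -0.09 to 0.06 on cycling arrays. For the lower core genes it was -1.03 to -0.78, -0.66 to -0.46 and -0.78 to -0.72 on the same arrested groups, against -0.07 to 0.08 on cycling arrays. Serum-starved arrays lay nearest to cycling cells in both directions.

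**Figure D1:**
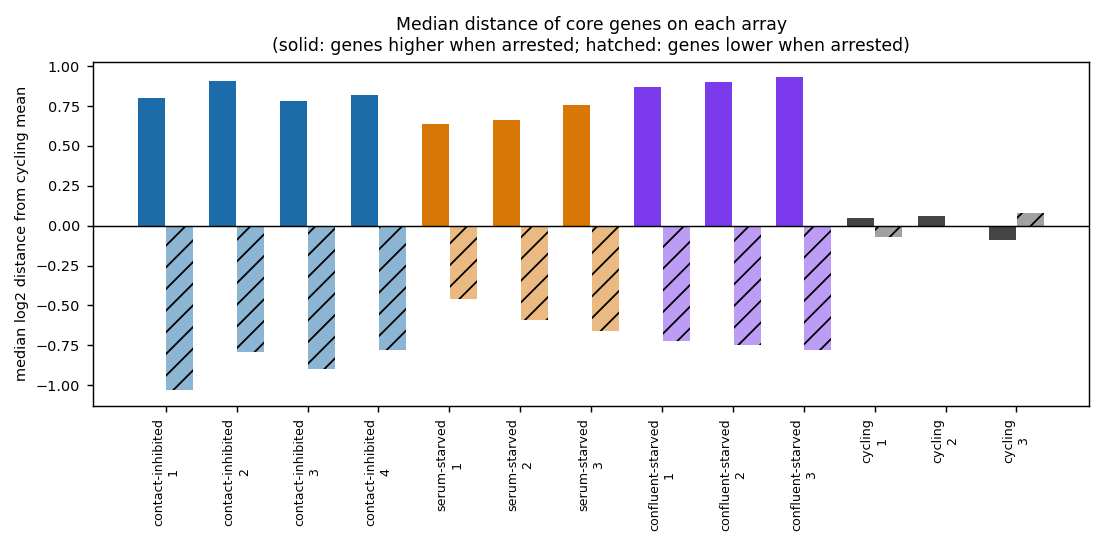
Median log2 distance of core genes from the cycling mean on each of the 13 arrays, solid bars for the 1128 genes higher and hatched bars for the 1300 genes lower on all arrested arrays. The bars of the 3 serum-starved arrays are the shortest among the 10 arrested arrays for the lower core genes, -0.66 to -0.46.

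Among the 12 genes that stood highest above cycling cells, FAM180A had signals of 3136, 2415, 2313 and 2246 in contact-inhibited, 1457, 2071 and 2008 in serum-starved and 2239, 2202 and 2367 in confluent-starved cells, against 23.4, 15.8 and 20.9 in cycling cells. All 10 arrested values were over 1400 and the cycling values were at or under 23.4, close to the filter on low signals (22.7), and the change was 5.94 ± 0.13 on the log2 scale. EXFABP, a fatty acid-binding lipocalin that cells secrete, had 11657, 9445, 8712 and 9115 in contact-inhibited, 1206, 2192 and 1949 in serum-starved and 4516, 4843 and 5403 in confluent-starved cells, against 312, 216 and 205 in cycling cells. Contact-inhibited arrays were highest and serum-starved arrays lowest among the arrested ones, with no overlap between the arrested groups, and the change was 4.09 ± 0.17. TGM2, which cross-links proteins, had 2927, 3559, 3288 and 3248 in contact-inhibited, 1493, 1630 and 1322 in serum-starved and 2684, 2450 and 2527 in confluent-starved cells, against 232, 208 and 186 in cycling cells, a change of 3.38 ± 0.10. Its serum-starved values lay below those of both confluent groups.

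Other secreted and matrix proteins of this group differed more between routes. SFRP2, a soluble Wnt antagonist, had 398, 570, 551 and 537 in contact-inhibited, 654, 1000 and 897 in serum-starved and 2360, 2236 and 2665 in confluent-starved cells, against 114, 105 and 91 in cycling cells. Its confluent-starved values were the highest by a wide margin, and the change over all routes was 3.11 ± 0.14. SMOC1, a calcium-binding matricellular protein, had 334, 1260, 1107 and 1008 in contact-inhibited, 967, 2208 and 2563 in serum-starved and 2846, 3187 and 2372 in confluent-starved cells, against 190, 184 and 44.2 in cycling cells. Contact-inhibited replicate 1 was the lowest arrested array and came nearest to the cycling arrays, and the change was 3.58 ± 0.43. COCH, the secreted protein cochlin, changed by 3.56 ± 0.31, SPON2, a spondin of the matrix, by 3.15 ± 0.29 and LRRC17, a secreted leucine-rich repeat protein, by 3.14 ± 0.18. TIMP4, an inhibitor of metalloproteinases, had 194, 238 and 46.8 in cycling cells and changed by 3.16 ± 0.36, or by 2.54 without cycling replicate 3. ANGPTL5, an angiopoietin-like protein, changed by 3.10 ± 0.17 and GATD3AL2 by 3.73 ± 0.26. CPXM2, an inactive relative of the metallocarboxypeptidases, completed the 12 highest genes with 3.41 ± 0.32. Cycling means of FAM180A, GATD3AL2, COCH, CPXM2 and ANGPTL5 lay under a signal of 22.7, so their fold depends on the offset. TIMP4 and CPXM2 were in the core on 1 of 2 tested probe sets each.

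On the lower side, the 12 core genes farthest from cycling cells began with DKK4. DKK4, a secreted Wnt antagonist, had 54.6, 41.9, 42.3 and 29.2 in contact-inhibited, 19.2, 12.6 and 27.4 in serum-starved and 27.3, 32.6 and 6.72 in confluent-starved cells, against 4474, 5655 and 4367 in cycling cells. No arrested array exceeded 54.6 and no cycling array was below 4367, a change of -6.85 ± 0.21. RGS20, which speeds the turn-off of G protein alpha subunits, had 14.2, 11.3, 13.9 and 13.3 in contact-inhibited, 11.7, 12.9 and 15.3 in serum-starved and 9.44, 12.6 and 11 in confluent-starved cells, against 1477, 1759 and 1481 in cycling cells. The 10 arrested values lay close together at the floor of the array and the change was -5.80 ± 0.10. ID1, a helix-loop-helix protein that blocks differentiation factors and a direct target of BMP signalling, had 94.2, 99.1, 95.8 and 92.2 in contact-inhibited, 128, 94 and 80.8 in serum-starved and 67.6, 62.5 and 77.4 in confluent-starved cells, against 4671, 6009 and 6325 in cycling cells. Its confluent-starved values lay below all other arrested arrays, and the change was -5.78 ± 0.13.

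Structural genes followed. ACTC1, the cardiac alpha-actin, had 989, 9907, 7447 and 8176 in contact-inhibited, 1190, 1555 and 1343 in serum-starved and 1460, 1515 and 1126 in confluent-starved cells, against 73318, 72167 and 39089 in cycling cells. Contact-inhibited replicates 2 to 4 lay above all other arrested arrays, contact-inhibited replicate 1 lay below the starved arrays, and the change was -4.81 ± 0.51. MYH15, a myosin heavy chain, and MYL4, an embryonic and atrial myosin light chain, changed by -4.61 ± 0.21 and -4.32 ± 0.11, and FHL2, a LIM-domain protein of muscle, by -3.91 ± 0.15. The skeletal muscle markers MYOD1, MYOG and DES did not exceed 51.3 on any array. TNNT3, the brightest of the muscle markers, had 124 to 162 in contact-inhibited and 79.3 to 113 in serum-starved cells. It had 85.6 to 105 in confluent-starved and 75.8 to 129 in cycling cells. The summed signal of the muscle markers was 179 to 306 over all arrays. COL2A1, the collagen of cartilage, had 904, 848, 981 and 817 in contact-inhibited, 579, 729 and 773 in serum-starved and 780, 698 and 724 in confluent-starved cells, against 9890, 9956 and 11111 in cycling cells. All arrested arrays were under 1000, and the change was -3.72 ± 0.10. Of its 5 tested probe sets only this 1 was in the core on the lower side, and 1 other was called in the opposite direction. Summed cartilage markers, which COL2A1 dominated, had 1389 to 1653 in contact-inhibited, 821 to 1009 in serum-starved and 891 to 1005 in confluent-starved cells, against 10144 to 11325 in cycling cells. Other cartilage markers ran differently. SOX9 had 100 to 114 in contact-inhibited, 57.6 to 65.7 in serum-starved and 25.4 to 41 in confluent-starved cells, against 85.6 to 102 in cycling cells. ACAN had 288 to 429 in contact-inhibited cells and 12 to 22.2 in the starved groups, against 13.3 to 20.6 in cycling cells. Whether a change in cell types had a part in these values was not tested.

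CRMP1, a collapsin response mediator of axon guidance, GJC3, a gap junction connexin, and PKP2, a plaque protein of desmosomes, changed by -4.66 ± 0.16, -3.84 ± 0.15 and -3.79 ± 0.18. KRT14, a basal epithelial keratin, had 13.8 to 97.7 in contact-inhibited, 326 to 333 in serum-starved and 163 to 178 in confluent-starved cells, against 815 to 1288 in cycling cells, and was in the core, while the epithelial markers CDH1 and EPCAM were at most 18.7 on all arrays. The 2 epithelial markers that passed the filter, KRT14 and KRT5, summed to 146 to 238 in contact-inhibited and 444 to 467 in serum-starved cells. The sum was 260 to 299 in confluent-starved and 971 to 1416 in cycling cells. KRT5 had 94.8 to 164 in contact-inhibited, 118 to 134 in serum-starved and 82.2 to 127 in confluent-starved cells. In cycling cells it had 109 to 155, so KRT14 carried the differences in the sum. The part of the epithelial markers in these values was not tested. Mean signals in 1 or more arrested groups lay under 22.7 for DKK4, RGS20, HINTW, MYH15, MYL4 and PKP2, so their fold depends on the offset. HINTW, a gene of the W chromosome, met the rule as well, with signals of 84.3, 1311, 1188 and 1197 in contact-inhibited, 428, 0 and 3.08 in serum-starved and 0, 0.85 and 0.83 in confluent-starved cells, against 2646, 2835 and 3358 in cycling cells. On this probe set, the only 1 of its 2 in the core, HINTW was listed at or near 0 on 5 starved arrays. Contact-inhibited replicates 2 to 4 lay below the cycling arrays for HINTW, although their mean W-linked level was slightly higher.

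**Figure D2:**
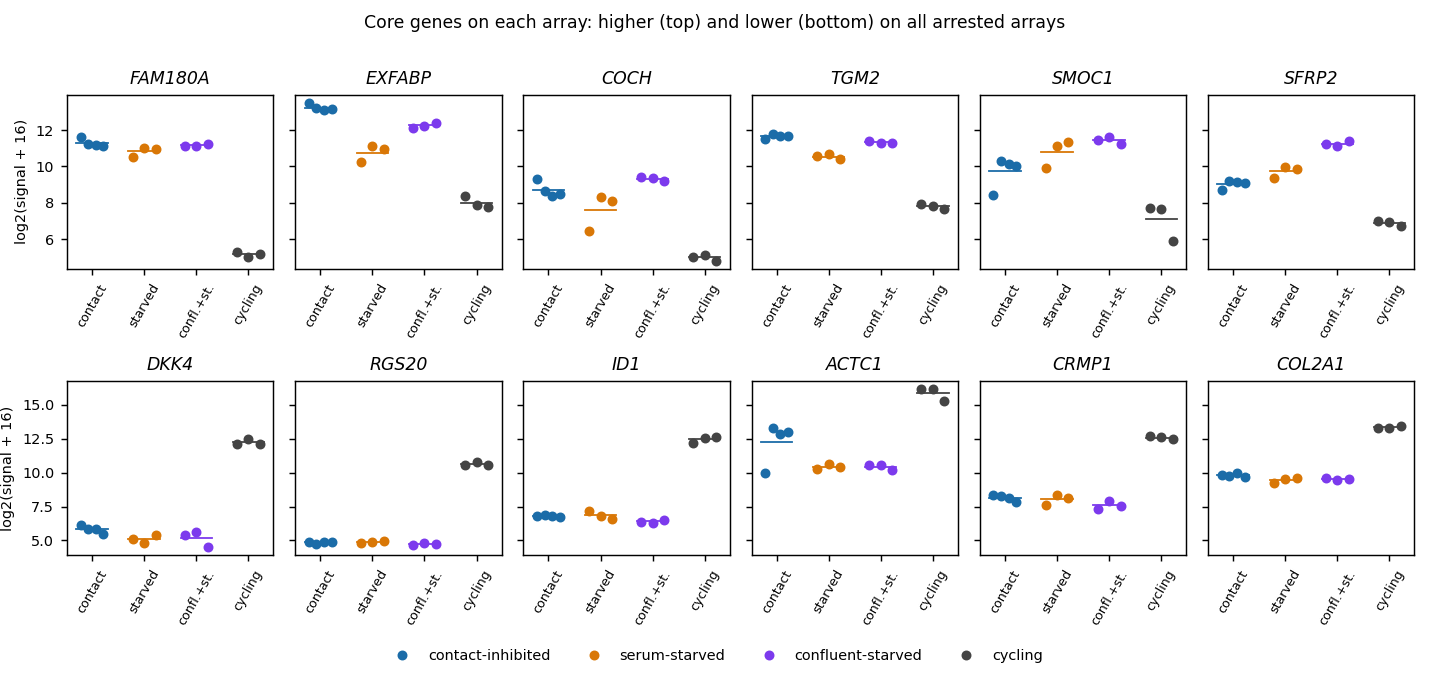
log2(signal + 16) of 12 core genes on each array (dots) with the group mean (line), in contact-inhibited, serum-starved, confluent-starved and cycling cells. In the upper row all arrested dots lie above the cycling dots, in the lower row all lie below, and RGS20 and ID1 have arrested dots at nearly one level.

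Genes of mitosis fell together. Of 60 tested genes of mitosis and chromosome segregation, 52 fell and 0 rose, with 0 higher at an unadjusted limma p under 0.05 as well, and 41 (68.3%) were in the core on the lower side, with a median change of -1.07 against 0.01 for all genes. CDK1, the mitotic kinase, had 2093, 2620, 2314 and 2493 in contact-inhibited, 1956, 1732 and 1557 in serum-starved and 1237, 1225 and 1124 in confluent-starved cells, against 5103, 5121 and 3753 in cycling cells. The confluent-starved arrays were lowest, and the change was -1.43 ± 0.11. CDC20, an activator of the anaphase-promoting complex, changed by -1.88 ± 0.13, SKA3, a kinetochore protein, by -1.87 ± 0.17, AURKB, the kinase of the chromosome passenger complex, by -1.81 ± 0.10 and CDCA3, a cell division protein, by -1.70 ± 0.13. Kinetochore and condensin genes such as CENPO (-1.63), CENPH (-1.60), NDC80 (-1.36) and SMC2 (-1.27) were also in the core.

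DNA replication genes were lower as well. Of 64 tested genes of replication and nucleotide synthesis, 45 fell and 0 rose (1 higher at an unadjusted limma p under 0.05), and 35 (54.7%) were lower core genes, with a median of -0.77. In contact-inhibited cells alone the median was -1.01 for replication genes and -0.69 for mitosis genes. TK1, thymidine kinase, had 294, 244, 238 and 308 in contact-inhibited, 420, 412 and 407 in serum-starved and 299, 266 and 250 in confluent-starved cells, against 887, 1095 and 1459 in cycling cells, a change of -1.80 ± 0.14. PRIM2, a primase subunit, RFC3, of the clamp loader, and FEN1, the flap endonuclease, changed by -1.85 ± 0.18, -1.79 ± 0.19 and -1.63 ± 0.15. TYMS, thymidylate synthase, had 161, 247, 234 and 268 in contact-inhibited, 607, 866 and 888 in serum-starved and 754, 720 and 581 in confluent-starved cells, against 1002, 1168 and 988 in cycling cells. Contact-inhibited arrays were far below the others, the starved arrays came close to the cycling arrays, and the change was -1.06 ± 0.16. Across the list, 25 genes were higher in serum-starved than in contact-inhibited cells and 0 were lower, at an unadjusted limma p under 0.05 too.

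Regulators of G1 were divided. Of 36 tested genes, 9 rose (25%) and 18 fell (50%), against 19.3% and 18.9% of all genes. The core held 4 (11.1%) higher and 10 (27.8%) lower, against 9.81% and 11.3% of all genes. E2F7, a repressive E2F, changed by -1.81 ± 0.14, CKS1B, a subunit of cyclin-dependent kinases, by -1.46 ± 0.14 and FBXO5, an inhibitor of the anaphase-promoting complex, by -1.44 ± 0.17. E2F1, an activating E2F, had 334, 281, 268 and 239 in contact-inhibited, 541, 577 and 578 in serum-starved and 381, 387 and 467 in confluent-starved cells, against 585, 755 and 1113 in cycling cells. Serum-starved replicates 2 and 3 came within 0.02 of the lowest cycling array on the log2 scale, and the change was -0.95 ± 0.16. The pocket protein RBL1 changed by -1.09 ± 0.17, on 1 of 5 probe sets in the core, and RBL2 by 0.33 ± 0.17, which did not pass (limma adjusted p = 0.162). On the higher side stood CDK6, a G1 kinase (1.57 ± 0.32), CCND2, a D cyclin (0.78), and CDKN2A (1.17). The margin of CDK6 was 0.07, it had 234, 319 and 64.2 in the 3 cycling arrays, and the change was 0.96 without cycling replicate 3.

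The inhibitors CDKN1A, CDKN1B and CDKN2B were not in the core. CDKN1A, the inhibitor p21, had 4405, 2237, 2168 and 1978 in contact-inhibited, 3636, 4179 and 4388 in serum-starved and 4498, 5144 and 5730 in confluent-starved cells, against 1836, 2132 and 2439 in cycling cells. Contact-inhibited replicates 2 to 4 overlapped with the cycling arrays, and limma called the mean of the routes higher (0.82 ± 0.19, adjusted p = 0.00523). CDKN1B, the inhibitor p27, had 3256, 3094, 2888 and 3054 in contact-inhibited, 1555, 1652 and 1859 in serum-starved and 2315, 2424 and 3174 in confluent-starved cells, against 1608, 1517 and 1873 in cycling cells, with serum-starved arrays overlapping the cycling arrays (0.52 ± 0.10, adjusted p = 0.00198 by limma). CDKN2B, the inhibitor p15, had 186, 204, 179 and 203 in contact-inhibited, 5079, 4913 and 5129 in serum-starved and 2679, 2679 and 2550 in confluent-starved cells, against 1949, 1748 and 1786 in cycling cells. It was lower than in cycling cells on contact-inhibited arrays and higher on all starved arrays, so its mean change of -0.39 ± 0.08 (limma adjusted p = 0.00216) describes none of the routes.

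Other mitogen targets also differed by route. MYC had 463, 433, 346 and 324 in contact-inhibited, 1758, 1184 and 1998 in serum-starved and 1549, 1620 and 1394 in confluent-starved cells, against 1218, 1551 and 918 in cycling cells, below the cycling arrays in contact-inhibited cells only, with a mean change of -0.28 ± 0.18 (limma adjusted p = 0.239). EGR1, an immediate early factor of the ERK pathway, had 1013, 1244, 1204 and 1483 in contact-inhibited, 7243, 5193 and 5840 in serum-starved and 5831, 5914 and 7951 in confluent-starved cells, against 4971, 4778 and 4915 in cycling cells, again low only in contact-inhibited cells (-0.42 ± 0.13, limma adjusted p = 0.0198, or 0.0629 without cycling replicate 1). CCND1, cyclin D1, changed by 0.08 ± 0.09 (limma adjusted p = 0.545). GAS2, named for its rise in arrested mouse fibroblasts, had 199, 734, 634 and 800 in contact-inhibited, 4591, 3639 and 3373 in serum-starved and 3046, 2910 and 3240 in confluent-starved cells, against 342, 325 and 322 in cycling cells. Only contact-inhibited replicate 1, at 199, lay below the cycling arrays, and the change was 2.43 ± 0.30 (limma adjusted p = 4.87e-05). PDGFRA, a receptor of platelet-derived growth factor, was dim and changed by 0.35 ± 0.19 (limma adjusted p = 0.166), but passed without cycling replicate 1 (0.61, limma adjusted p = 0.0255). Of the 15 genes of this kind set for description, 5 were in the core, all on the lower side: ID1, CDK1, E2F1, RBL1 and TYMS.

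Genes of ribosome production fell. Of 76 tested genes of the MYC network and ribosome biogenesis, 58 fell and 0 rose, with 0 higher at an unadjusted limma p under 0.05, and 41 (53.9%) were lower core genes, with a median of -0.73. NHP2, a core protein of H/ACA ribonucleoproteins, had 399, 506, 471 and 427 in contact-inhibited, 761, 547 and 542 in serum-starved and 495, 460 and 411 in confluent-starved cells, against 1321, 1639 and 2211 in cycling cells, a change of -1.72 ± 0.15. NPM3, a nucleoplasmin, NOP16, a nucleolar protein, and URB1, of the large subunit pathway, changed by -1.61 ± 0.16, -1.52 ± 0.16 and -1.42 ± 0.22. The fall was deepest in contact-inhibited cells, with a median of -1.05 against cycling cells, then -0.66 in confluent-starved and -0.42 in serum-starved cells. MYCN, a MYC paralogue, was in the core (-1.36).

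Other parts of the machinery for growth stood lower in part. Of 33 proteasome genes 25 fell and 1 rose, and 17 (51.5%) were lower core genes, among them PSMD3 (-1.04 ± 0.13), PSMC5 (-0.98 ± 0.11), PSMA7 (-0.92 ± 0.09) and PSMB2 (-0.86 ± 0.20). Of 39 cytosolic chaperones 28 fell and 2 rose, and 16 (41.0%) were lower core genes. HSPB9, a small heat shock protein, had 1585, 832, 824 and 1093 in contact-inhibited, 964, 1190 and 991 in serum-starved and 1216, 1063 and 1533 in confluent-starved cells, against 5989, 5438 and 8171 in cycling cells, a change of -2.52 ± 0.19. HSPH1, a nucleotide exchange factor of HSP70, CHORDC1, a partner of HSP90, and HSPB8, a small heat shock protein, changed by -1.96 ± 0.23, -1.91 ± 0.10 and -1.70 ± 0.12. Of 8 subunits of the CCT chaperonin, which folds actin and tubulin, 7 were in the core.

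Translation and energy genes moved less, with a median change of -0.26 in either list. Of 50 translation factors and tRNA synthetases 11 rose (22%) and 24 fell (48%), against 19.3% and 18.9% of all genes. The core held 6 higher (12%) and 10 lower (20.0%), against 9.81% and 11.3% of all genes. FARSB, a subunit of phenylalanyl-tRNA synthetase (-1.06 ± 0.13), EIF5A2, a translation factor (-0.96 ± 0.13), and EIF2B3, of the exchange factor eIF2B (-0.72 ± 0.12), were on the lower side. EEF2K, the kinase that inactivates elongation factor 2, was on the higher side with 0.87 ± 0.12. Of 59 genes of the respiratory chain and ATP synthase 26 fell and 1 rose, and 19 (32.2%) were lower core genes, mostly with small changes. CYCS, cytochrome c, had 1626, 1580, 1714 and 1839 in contact-inhibited, 3115, 2157 and 2148 in serum-starved and 1862, 1564 and 1565 in confluent-starved cells, against 5387, 5754 and 4356 in cycling cells, a change of -1.43 ± 0.12. NDUFA8 of complex I (-0.82 ± 0.10), UQCRB of complex III (-0.79 ± 0.14) and ATP5B of ATP synthase (-0.70 ± 0.08) changed less.

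Sterol synthesis genes leaned lower. Of 37 genes of cholesterol and fatty acid synthesis 20 fell and 5 rose, and 10 (27.0%) were lower core genes. NSDHL, a sterol dehydrogenase, changed by -1.72 ± 0.21, FDPS, farnesyl diphosphate synthase, by -1.45 ± 0.14 and ACAT2, the cytosolic thiolase, by -1.19 ± 0.16. ME1, the malic enzyme that supplies NADPH, was the 1 core gene on the higher side (1.05 ± 0.12).

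Part of the BMP response genes stood lower with ID1. Of 32 tested genes of the BMP and TGF-beta response 5 rose and 14 fell, and 12 (37.5%) were lower core genes. All 4 ID genes were among them. ID2 had 212, 296, 274 and 328 in contact-inhibited, 572, 721 and 628 in serum-starved and 524, 498 and 726 in confluent-starved cells, against 4856, 5063 and 4355 in cycling cells, a change of -3.30 ± 0.14. Here the contact-inhibited arrays lay below all starved arrays, unlike ID1. ID3 changed by -2.15 and ID4 by -0.94. BAMBI, a decoy receptor induced by BMP, had 442, 276, 225 and 255 in contact-inhibited, 186, 213 and 224 in serum-starved and 244, 192 and 247 in confluent-starved cells, against 1556, 1964 and 1452 in cycling cells, a change of -2.70 ± 0.17. DLX5, a homeobox target of BMP, had 240, 458, 436 and 540 in contact-inhibited, 164, 87 and 69.2 in serum-starved and 101, 70.6 and 75.3 in confluent-starved cells, against 1980, 2017 and 1717 in cycling cells. Contact-inhibited arrays lay above all starved arrays, and the change was -3.51 ± 0.24. Inhibitory SMAD6 (-1.72) and SMAD7 (-0.60) and the ligands BMP2 (-2.11), BMP4 (-0.30) and TGFB3 (-2.47) were lower core genes as well. On the higher side stood the ligand BMP7 (1.32), the antagonist CHRD (0.22) and the Notch and BMP target HEY1 (1.71). Limma did not call BMP4 or CHRD. On the same list MSX1 (-0.29), MSX2 (-0.19), DLX3 (0.16) and NOG (-0.17) were neither called nor in the core.

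The Wnt list, immediate early genes and growth factor signalling had no common direction. Of 30 Wnt pathway genes 6 rose (20%) and 5 fell (16.7%), near the shares of all genes (19.3% and 18.9%). The core held 3 (10.0%) on each side, also near the shares of all genes (9.81% and 11.3%). These were SFRP2, SFRP1 (0.98) and RSPO3 (1.22) higher, and DKK4, WNT5A (-1.64 ± 0.13) and FZD4 (-1.44 ± 0.14) lower. The median of this list was 0.05 as deposited and -0.06 after centring. Of 36 immediate early and ERK feedback genes 6 rose (16.7%) and 6 fell (16.7%). Core genes were 3 (8.33%) higher and 1 (2.78%) lower, both under the shares of all genes, or 2 higher and 3 lower after centring. JUN, a subunit of AP-1, had 4420, 2386, 2129 and 2118 in contact-inhibited, 2408, 1994 and 2770 in serum-starved and 2359, 1980 and 2975 in confluent-starved cells, against 1132, 1279 and 1238 in cycling cells, a change of 1.01 ± 0.20. ZFP36L1, an RNA decay factor, changed by 0.81 ± 0.12. DUSP1, a MAP kinase phosphatase, changed by 1.14 ± 0.39, with 5937 on contact-inhibited replicate 1 and 1138 to 1447 on the other contact-inhibited arrays, and SRF, the serum response factor, by -1.31 ± 0.18. Without cycling replicate 3, DUSP1 no longer passed (0.95, adjusted p = 0.128 by limma), and its call also ended without cycling replicate 1 (1.17), serum-starved replicate 3 (1.08) or confluent-starved replicate 3 (1.07).

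Of 59 growth factor and receptor genes 18 rose (30.5%) and 11 fell (18.6%), against 19.3% and 18.9% of all genes. Core genes were 11 (18.6%) higher and 5 (8.47%) lower, against 9.81% and 11.3% of all genes. PDGFRL, a receptor-like protein, had 2763, 3014, 2895 and 3131 in contact-inhibited, 3125, 3074 and 2841 in serum-starved and 3190, 3552 and 4015 in confluent-starved cells, against 1117, 1001 and 784 in cycling cells. The arrested arrays lay close together, and the change was 1.71 ± 0.10. HGF, the ligand of MET, changed by 2.10 ± 0.31, MET itself by 1.00, PDGFRB by 0.92 and FGFR1 by 0.99. IGFBP2, a binding protein of insulin-like growth factors, changed by -1.97 ± 0.21 and FGFR2 by -1.37. After centring the counts in the core were 7 higher and 8 lower.

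Contractile genes were called lower far more than higher. Of 44 tested genes of the actin cytoskeleton 23 fell and 2 rose, and 16 (36.4%) were lower core genes, among them ACTC1, MYH15, MYL4 and FHL2 above, ACTG2 (-2.64), CNN2 (-2.10) and TAGLN (-0.58). The only core gene on the higher side was FHL1 (2.45), a LIM-domain relative of FHL2.

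Extracellular matrix genes leaned higher. Of 80 tested genes of the matrix and its enzymes 40 rose and 8 fell, and 27 (33.8%) were core genes on the higher side and 2 (2.50%) on the lower, with a median of 0.47. Beside SMOC1, TIMP4, CPXM2 and TGM2 stood FBN2, a fibrillin (2.17), ELN, elastin (1.85), the fibulins FBLN1 (1.61) and FBLN2 (1.44), and all 3 collagen VI chains, COL6A1 (1.71), COL6A2 (1.78) and COL6A3 (1.53). COL1A2, the other chain of type I collagen, was a core gene with a small change (0.40). The 2 lower core genes of the list were the basement membrane linker NID1 (-2.73) and the hyaluronan link protein HAPLN1 (-2.07). COL2A1, the lower core gene described above, was not on the list and had a larger change (-3.72).

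Lysosome and autophagy genes leaned higher as well. Of 74 tested genes 39 rose and 4 fell, and 24 (32.4%) were higher core genes, with medians against cycling cells of 0.39 in contact-inhibited, 0.38 in serum-starved and 0.51 in confluent-starved cells. CTSV, a cathepsin protease, had 6303, 4716, 4928 and 4714 in contact-inhibited, 6776, 4575 and 4652 in serum-starved and 5952, 6020 and 6083 in confluent-starved cells, against 1576, 1697 and 1430 in cycling cells, a change of 1.79 ± 0.12. ARSB, arylsulfatase B, had 741, 736, 672 and 671 in contact-inhibited, 752, 748 and 754 in serum-starved and 794, 708 and 704 in confluent-starved cells, against 276, 302 and 211 in cycling cells. The 10 arrested values of ARSB spread from 671 to 794, and the change was 1.43 ± 0.11. CTSK, cathepsin K, changed by 1.39 ± 0.21, and LAMP2, a lysosomal membrane protein, by 1.74 ± 0.45, with 302, 344 and 34.4 in the cycling arrays and a change of 0.83 without cycling replicate 3. TFEB, the transcription factor of lysosome genes (1.03), and ULK1, a kinase that starts autophagy (1.07), were in the core. The subunits ATP6V1B2 (-0.22) and ATP6V1G1 (-0.42) of the proton pump were the 2 lower core genes.

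Genes known to rise in quiescent mammalian fibroblasts leaned higher. Of 37 tested genes 20 rose and 2 fell, and 10 (27.0%) were higher core genes, 0 lower. PIK3IP1, an inhibitor of PI3 kinase, had 306, 183, 168 and 186 in contact-inhibited, 762, 943 and 976 in serum-starved and 1174, 1167 and 1380 in confluent-starved cells, against 95.4, 113 and 108 in cycling cells. Starved arrays lay far above contact-inhibited arrays, and the change was 2.38 ± 0.16. CLU, the extracellular chaperone clusterin, changed by 2.16 ± 0.16, NDRG1, a stress-induced protein, by 1.55 ± 0.11 and SESN3, a sestrin, by 1.23 ± 0.25. The MYC antagonists MXI1 (0.43) and MXD4 (0.78) and the translation inhibitor PDCD4 (0.65) were in the core. Their relative MXD1 on the same list fell (-0.33), and MNT of the MYC network list was not called (0.19), both outside the core.

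Lipid transport and hypoxia genes were raised in part. Of 27 lipid carriers 10 rose and 3 fell, and 7 (25.9%) were higher core genes, among them EXFABP, the cholesterol exporter ABCA1 (1.67) and the lipoprotein receptor SCARB1 (1.81 ± 0.15), and 2 (7.41%) lower, FABP7 (-1.96 ± 0.31) and VLDLR (-0.45 ± 0.12). FABP4, an adipocyte marker that carried most of the summed adipocyte signal, had 2480 to 12876 in contact-inhibited, 143 to 633 in serum-starved and 411 to 484 in confluent-starved cells, against 111 to 261 in cycling cells, and lay outside the core. The 5 adipocyte markers summed to 3018 to 13703 in contact-inhibited, 512 to 1047 in serum-starved and 830 to 893 in confluent-starved cells, against 453 to 829 in cycling cells, and their part in the lipid genes was not tested. Of 42 hypoxia and glycolysis genes 19 rose (45.2%) and 9 fell (21.4%), against 19.3% and 18.9% of all genes. Core genes were 13 (31.0%) higher and 7 (16.7%) lower, against 9.81% and 11.3% of all genes. CA12, a carbonic anhydrase, had 586, 643, 526 and 547 in contact-inhibited, 69.4, 243 and 191 in serum-starved and 334, 360 and 292 in confluent-starved cells, against 22.4, 24.4 and 22.2 in cycling cells, a change of 3.05 ± 0.24. Its contact-inhibited arrays lay above all starved arrays. ENO2, an enolase, changed by 2.17 ± 0.28 and EPAS1, a hypoxia-inducible factor, by -1.79 ± 0.16. After centring the hypoxia list held 8 higher and 9 lower core genes.

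Amino acid response genes had few core members, and interferon genes had shares in the core near those of all genes. Of 30 amino acid deprivation genes 7 rose (23.3%) and 5 fell (16.7%), against 19.3% and 18.9% of all genes. The core held only DDIT4, an inhibitor of mTORC1 (0.62 ± 0.08), and VLDLR. These were 3.33% of the list on each side, against 9.81% and 11.3% of all genes. The routes differed here, with a median of 0.66 in serum-starved and -0.38 in contact-inhibited cells against cycling cells. Of 31 interferon response genes 9 rose (29.0%) and 4 fell (12.9%), and 3 (9.68%) were core genes on each side, against 9.81% and 11.3% of all genes. CXCL14, a chemokine, had 7881, 8435, 8367 and 8362 in contact-inhibited, 7158, 3269 and 3390 in serum-starved and 5510, 5899 and 6736 in confluent-starved cells, against 1763, 1812 and 711 in cycling cells, a change of 2.17 ± 0.26. EIF2AK2, the kinase PKR, changed by 0.72 ± 0.15, the peptide transporter TAP1 by -0.90 ± 0.15 and the cytokine inhibitor SOCS1 by -0.72 ± 0.16. The median of the interferon list was 0.05 as deposited, -0.06 after centring and -0.04 after quantile normalization.

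**Figure D3:**
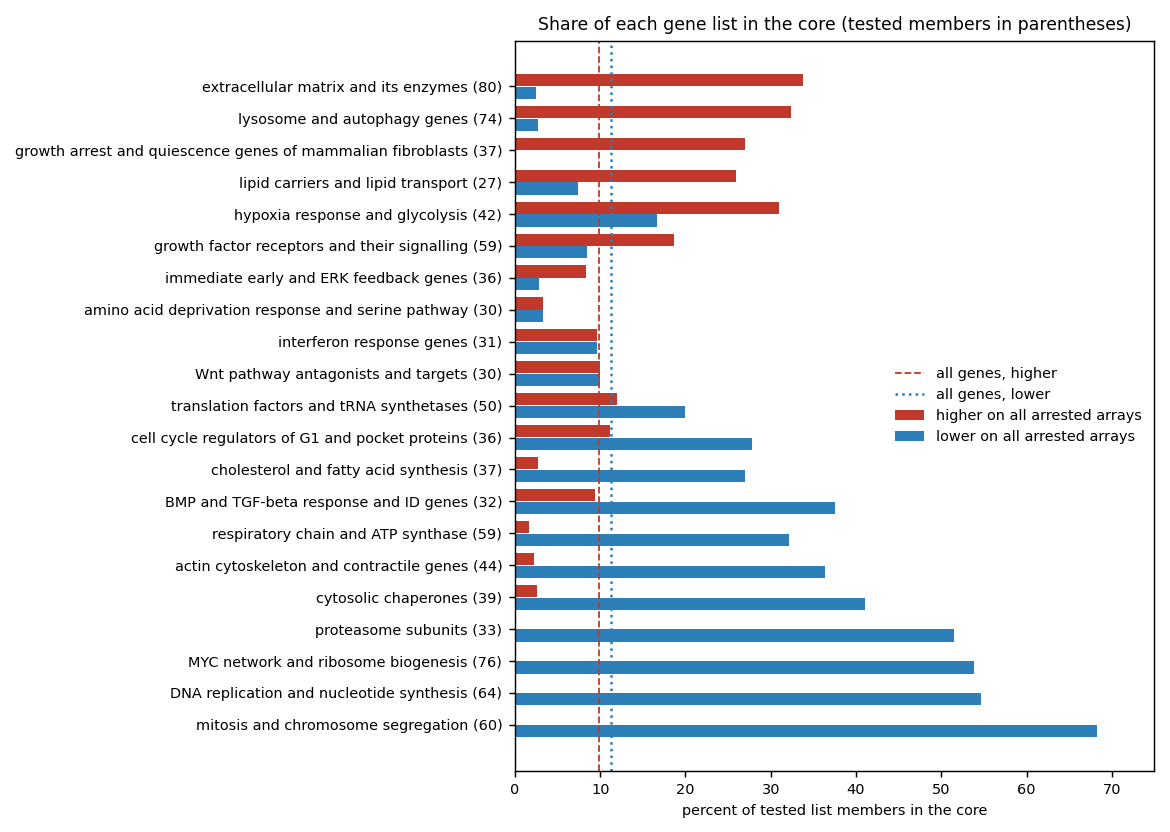
Percent of tested members of 21 gene lists in the core, higher (red) or lower (blue) on all arrested arrays, with the shares of all genes as dashed (9.81%) and dotted (11.3%) lines. Mitosis (68.3% lower) and matrix genes (33.8% higher) lie at the 2 ends.

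Part of the core genes differed between routes. A moderated F test over the 3 arrested groups, which does not use the level of the cycling arrays, called 308 of the 1128 higher core genes (27.3%) and 472 of the 1300 lower core genes (36.3%), against 25.8% of all genes, so the share of the higher core genes was near that of all genes. With array weights the shares were 57.7%, 58.1% and 48.9%. The core rule bounds the arrested values on one side, and core genes are brighter than the rest, so these shares are given as a description. The 3 group means lay within 0.25 on the log2 scale in 312 of the 1128 higher and 366 of the 1300 lower core genes. The same held for 3034 of the 9070 genes outside the core, a larger share. Serum-starved cells were rarely the farthest from cycling cells, in 99 of the higher and 124 of the lower core genes. Contact-inhibited cells were the farthest for 468 and 750, and confluent-starved cells for 561 and 426.

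Serum-starved minus contact-inhibited differences ran mostly towards the cycling level. Of the lower core genes, 417 were higher and 58 lower in serum-starved than in contact-inhibited cells, where 15.1% and 8.6% of all genes were called in these directions. Of the higher core genes, 68 were higher and 173 lower. In confluent-starved minus contact-inhibited cells, 212 of the lower core genes were higher and 97 lower, and 155 of the higher core genes were higher and 68 lower, against 13.5% and 7.34% of all genes. Between confluent-starved and serum-starved cells few genes were called, 0.818% of all genes higher and 0.644% lower. There 43 of the higher core genes were higher and 5 lower, and 3 of the lower core genes were higher and 24 lower. The W-linked level was 5.98 to 6.66 in serum-starved and 6.11 to 6.16 in confluent-starved cells, against 6.28 to 7.30 in contact-inhibited cells, and its part in these differences was not tested.

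Single core genes differed widely between routes. LRRC32, a membrane protein that binds latent TGF-beta and a lower core gene, had 1249, 1391 and 1240 in serum-starved, 1114, 1199 and 1068 in confluent-starved and 130, 75.5, 81.8 and 80.3 in contact-inhibited cells, against 1706, 1606 and 1686 in cycling cells. Serum-starved exceeded contact-inhibited cells by 3.63 ± 0.15 (limma adjusted p = 9.09e-09), on 1 of 3 probe sets in the core. CPXM2 had 294, 834 and 903 in serum-starved, 2172, 1535 and 772 in confluent-starved and 48.4, 69, 57.8 and 41.8 in contact-inhibited cells, against 24.7, 25.1 and 14 in cycling cells, with contact-inhibited arrays only a little above the cycling arrays. Its serum-starved minus contact-inhibited difference was 3.17 ± 0.37 (limma adjusted p = 6.62e-05). FRRS1, a ferric reductase relative (2.52 ± 0.29), FGF18, a fibroblast growth factor (2.46 ± 0.16), and ANKRD1, a target of YAP (2.37 ± 0.62), were also higher on average in serum-starved cells. For ANKRD1 the 2 groups overlapped. It had 259, 643 and 869 in serum-starved cells, against 482, 48.4, 38.8 and 52.6 in contact-inhibited cells. Mean signals of FGF18 lay under 22.7 in contact-inhibited (13.3) and cycling cells (1.03), so its difference depends on the offset.

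In the other direction, GEM, a small GTPase, had 439, 282 and 279 in serum-starved, 1070, 953 and 1566 in confluent-starved and 3121, 1945, 2010 and 2069 in contact-inhibited cells, against 188, 149 and 121 in cycling cells. Serum-starved minus contact-inhibited was -2.72 ± 0.23 (limma adjusted p = 3.64e-06). EXFABP (-2.47 ± 0.19), the tetraspanin CD82 (-2.09 ± 0.13), the receptor GPRC5B (-1.99 ± 0.19) and HINTW (-3.69 ± 1.04) were lower on average in serum-starved cells too. For HINTW the 2 groups overlapped, with 428 on serum-starved replicate 1 and 84.3 on contact-inhibited replicate 1. CD82 had 180, 182 and 223 in serum-starved cells, against 731 to 973 in contact-inhibited cells, and its margin to the cycling arrays was 0.03.

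**Figure D4:**
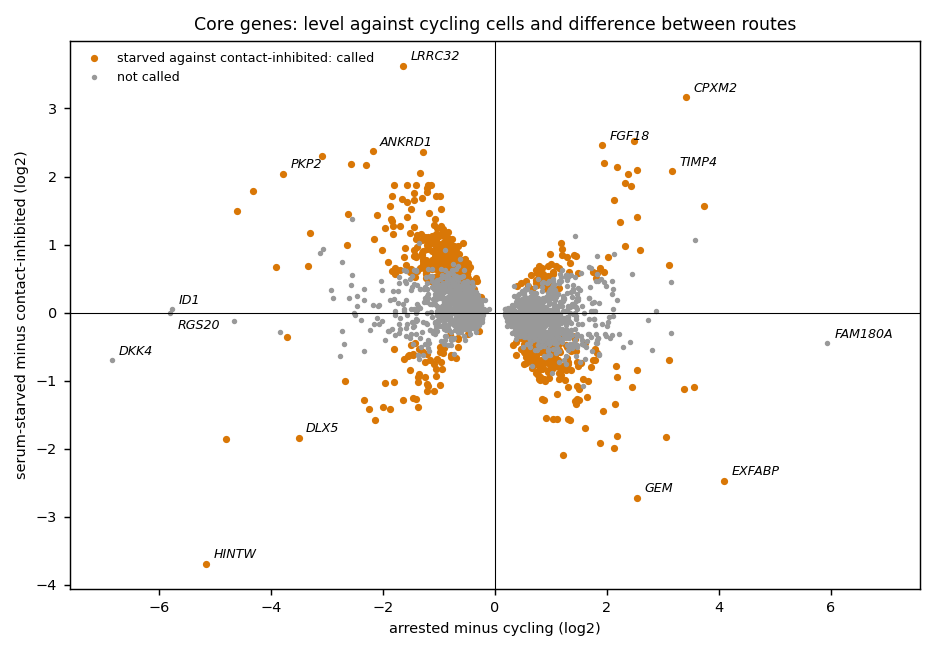
Core genes by their arrested minus cycling change (x axis, log2) and their serum-starved minus contact-inhibited difference (y axis, log2), orange where limma called the difference. RGS20 and ID1 lie near 0 on the y axis, LRRC32 and CPXM2 at its top and HINTW at its bottom.

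The core genes with the least difference between routes were of mixed kinds. RGS20 was the one with the largest change among those whose group means lay within 0.25. WBSCR17, a glycosyltransferase, had 1732, 2291, 2079 and 2439 in contact-inhibited, 1895, 2142 and 1877 in serum-starved and 1953, 1894 and 2298 in confluent-starved cells, against 323, 282 and 275 in cycling cells, a change of 2.74 ± 0.11, and NTM, a neuronal adhesion protein, changed by 2.10 ± 0.23. On the lower side, CYP1A1, a target of the aryl hydrocarbon receptor, had 187, 145, 135 and 137 in contact-inhibited, 135, 143 and 135 in serum-starved and 121, 118 and 137 in confluent-starved cells, against 692, 852 and 851 in cycling cells. Its starved and contact-inhibited values intermingled, and the change was -2.40 ± 0.12. GRM3, a glutamate receptor, and ATOH8, a helix-loop-helix factor, changed by -2.46 ± 0.12 and -2.17 ± 0.20. These 6 genes were chosen for their like group means, so no test between routes is given.

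Gene lists also ran differently by route. Mitosis genes were lowest in confluent-starved cells, with medians of -1.17 in serum-starved, -1.55 in confluent-starved and -0.69 in contact-inhibited cells against cycling cells, and 28 of the 60 were lower and 2 higher in serum-starved than in contact-inhibited cells. CDC20 had 557, 406 and 389 in serum-starved, 308, 303 and 263 in confluent-starved and 1334, 1247, 1147 and 1100 in contact-inhibited cells, against 1729, 2092 and 2336 in cycling cells, and its serum-starved minus contact-inhibited difference was -1.41 ± 0.15 (limma adjusted p = 2.43e-05). Ribosome biogenesis genes ran the other way, with 42 of 76 higher and 0 lower in serum-starved than in contact-inhibited cells, or 2 lower at an unadjusted limma p under 0.05. NOP16 had 814, 544 and 504 in serum-starved, 491, 368 and 302 in confluent-starved and 257, 274, 245 and 271 in contact-inhibited cells, against 1033, 1185 and 1260 in cycling cells, a difference of 1.17 ± 0.18 (limma adjusted p = 0.000567). Chaperones (24 of 39 higher, 2 lower) and contractile genes (19 of 44 higher, 3 lower) also stood higher in serum-starved than in contact-inhibited cells. Matrix genes (21 of 80 higher, 16 lower) and lysosome genes (7 of 74 higher, 8 lower) had no common direction.

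**Figure D5:**
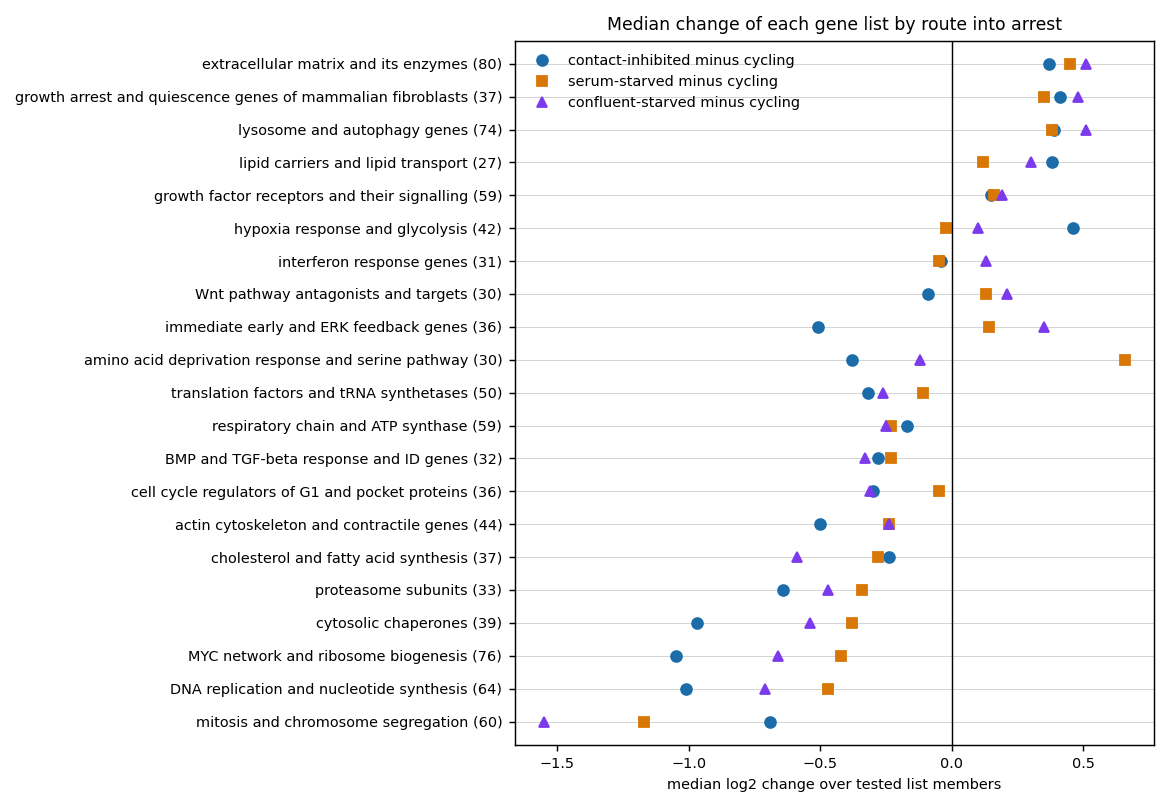
Median log2 change against cycling cells of 21 gene lists in contact-inhibited (circles), serum-starved (squares) and confluent-starved cells (triangles), which share the same 3 cycling arrays. The circle is the lowest symbol for ribosome biogenesis (-1.05) and replication (-1.01), the triangle for mitosis (-1.55).

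At the border of the core the rule parted genes of like values. Just inside were TNX, with 24.2 as its lowest arrested and 24.2 as its highest cycling signal, and TAF4, with 63.9 and 63.9, on the higher side, and REEP1 and UTP15 on the lower side, all with margins of 0.00 to 2 decimals. Just outside were NDUFAF2, PAIP1 and NOD1 on the higher side and MESDC1 on the lower, also with margins of 0.00 after rounding. Inside, the change was 0.17 ± 0.09 for TNX, 0.72 ± 0.15 for TAF4, -0.57 ± 0.13 for REEP1 and -0.75 ± 0.14 for UTP15. Outside, it was 0.17 ± 0.10 for NDUFAF2, 0.41 ± 0.13 for PAIP1, 1.00 ± 0.27 for NOD1 and -0.33 ± 0.10 for MESDC1.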

How the data were processed

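RNA of 13 fibroblast cultures was hybridised to Affymetrix chicken arrays. The authors deposited linear probe set intensities, made with PLIER in Affymetrix Expression Console 1.1, per the submitters' processing notes. How background and scaling were set is not given in the sources used here. Of 38535 probe sets, 37693 have a chicken ID, and 27166 of these have 1 gene symbol in the platform annotation. No normalization was added. Values were taken as log2(intensity + 16), and the 25% of chicken probe sets with the lowest mean, under an intensity of 22.7, were left out. All 4 groups were fitted in limma 3.58.1 (R 4.3.3, eBayes with trend, 9 residual and 4.33 prior degrees of freedom), with Benjamini-Hochberg adjustment over all 28270 probe sets and a threshold of 0.05. Tables and figures were made in Python 3.11.15 with pandas 2.3.3, numpy 2.4.6 and matplotlib 3.10.9. The fit was tested on simulated data. With few arrays a group, their number limits the precision.

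The core is the set of probe sets whose 10 arrested values all lie on one side of the 3 cycling values. Its margin is the log2 gap between the nearest arrested and cycling arrays, and overlapping probe sets have a negative margin. The members and the gene lists were chosen with earlier results of these data known. A gene is represented by its tested probe set with the highest mean. Genes named with full values are the 12 highest and 12 lowest of the core, up to 4 core members with the largest change in each list, 15 regulators chosen by name, 4 on each side of the core's border, and 16 core genes chosen by their difference or likeness between arrested groups. Other list members are examples chosen after their values were seen, and marker genes serve as checks. Replicate numbers recur in the groups, but residuals of the 18 same-numbered pairs correlated at -0.293 to 0.382 and 4 of 12 arrays correlated best with their own number, so they were not treated as pairs. Alternatives were other offsets, filters, scaling, weights, a replicate block, each array left out, and 2 arrays left out together. The comparisons left out probe sets that have no chicken ID. No genome or sequence table was used.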

Additional observations from a re-analysis of the deposited data

Results flagged for a closer look

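In the contact-inhibited group of 4 arrays, 23 of 125 described genes had 1 array far from the others by Dixon's test, and 21 of these were on replicate 1. Chance alone marks about 1 in 20 independent groups. These genes share the same 4 arrays and were partly chosen by their values, so that rate gives no test of the counts. Replicate 1 was high for GATD3AL2 (497), PIK3IP1 (306), DUSP1 (5937), JUN (4420), CTSV (6303), CDKN1A (4405), LRRC32 (130), ANKRD1 (482) and GEM (3121). It was low for SMOC1 (334), SPON2 (1571), SFRP2 (398), HINTW (84.3), ACTC1 (989), RFC3 (25.8), NDRG1 (3641), ACAT2 (552), PSMB2 (823), CXCL14 (7881), EIF2AK2 (150) and GAS2 (199). The other arrays marked were replicate 4 for E2F7 (233) and replicate 2 for ENO2 (2419). On the log2 scale replicate 1 lay nearer to the mean of the starved arrays than to that of the other contact-inhibited arrays for 11 of these 21 genes, CDKN1A and ACTC1 among them, and nearer to the other contact-inhibited arrays for 10, GAS2 and GEM among them. The part of the make-up of that culture was not tested.

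Among core genes, effects against the same cycling arrays differed between serum-starved and contact-inhibited cells by limma's contrast between them. On the log2 scale serum-starved minus contact-inhibited was 3.63 for LRRC32, 3.17 for CPXM2, 2.52 for FRRS1, 2.46 for FGF18 and 2.37 for ANKRD1. It was -3.69 for HINTW, -2.72 for GEM, -2.47 for EXFABP, -2.09 for CD82 and -1.99 for GPRC5B.

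Among 689 probe sets without a chicken ID, which the comparisons do not use, 138 had a mean over the filter level, and 8 of these were higher on all 10 arrested arrays and 0 lower.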

How the results depend on the processing

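Of 125 described genes, 0 were called in the opposite direction under any of 26 alternatives. This count covers calls only, and the sign of a small uncalled change could differ. Under at least 1 alternative 18 lost their call, 11 of them core genes, and MYC, RBL2 and PDGFRA gained one. Treating the 10 arrested arrays as a single group of equally weighted arrays took the call from 12 genes. Among them were CDKN2B and the core genes ANKRD1, CD82, DUSP1, LRRC32, TYMS and VLDLR. In that fit differences between the routes add to the spread, so the effect of the weighting alone is not shown. With contact-inhibited replicates 2 to 4 against cycling arrays alone, 5 genes lost theirs, among them CDKN1A (0.00) and the core genes TIMP4, FRRS1 and TAP1. Of 882 list counts, 47 moved by over 1.5 times. With arrays centred on their median 44.3% of the calls were higher, against 58.7% as deposited. With array weights the F test between the arrested groups called 2581 core probe sets, against 1379. Without both cycling replicate 3 and contact-inhibited replicate 1, an alternative chosen after seeing the data, 3922 probe sets were higher and 3562 lower on every arrested array. With 1 array left out the core ranged from 4848 to 6574 probe sets, against 4792, since fewer arrays must be separated. With a replicate block limma called 5007 probe sets higher and 3538 lower and the F test called 1042 core probe sets, against 5462, 3845 and 1379. The replicate numbers are not known to pair the cultures. Small changes near a signal of 22.7 are limited by signal over background. A group mean under 22.7 was also found for EPAS1, HSPB8, EEF2K and NTM, so the size of their changes depends on the offset.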

Other observations

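Some gene families outside the lists stood on one side, as picked by gene symbol after the data were seen. Of 65 tested mitochondrial ribosomal protein genes 28 fell and 0 rose (1 higher at an unadjusted limma p under 0.05), and 18 (27.7%) were lower core genes, against 11.3% of all genes. MRPL27 (-1.05) and MRPL20 (-0.87) had the largest changes among them. Cytosolic ribosomal protein genes were called less often than genes at large. Of 62, 4 rose (6.45%, against 19.3% of all genes) and 1 fell (1.61%, against 18.9%). Higher core genes were 2 (3.23%, against 9.81%), RPS24 at 0.18 and RPS25 at 0.20, and lower core genes 0. The median change of the cytosolic ribosomal protein genes was 0.02. Their assembly factors, described above, had a median of -0.73.

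Genes of transcription and splicing leaned lower. Of 18 RNA polymerase subunit genes 10 fell and 0 rose, also at an unadjusted limma p under 0.05, and 9 (50%) were lower core genes, including POLR2H (-0.90), shared by the nuclear polymerases, and POLR2F (-0.66). Of 27 genes of spliceosomal SNRP, SF3 and LSM proteins 17 fell and 1 rose, and 14 (51.9%) were lower core genes, with LSM5 at -2.02 and SNRPA1 at -1.20. Of 18 tubulin genes 7 fell and 1 rose, and 6 (33.3%) were lower core genes.

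Genes of the primary cilium, which quiescent cells are known to build, leaned higher. Of 24 genes of intraflagellar transport and the BBSome 9 rose (37.5%, against 19.3% of all genes) and 1 fell. Higher core genes were 4 (16.7%, against 9.81% of all genes), few in number: TTC21B (1.04), BBS4 (0.99), IFT74 (0.71) and IFT140 (0.62). IFT43 was a lower core gene (-1.04).

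HOX genes had a share of higher core genes near that of all genes, and solute carrier genes had smaller shares in the core. Of 26 HOX genes 7 rose (26.9%, against 19.3% of all genes) and 0 fell, also at an unadjusted limma p under 0.05. HOXA3 (1.01) and HOXD12 (0.85) were core genes (7.69% of the 26, against 9.81% of all genes on the higher side). Of 248 solute carrier genes 31 rose and 44 fell, with 17 (6.85%) and 20 (8.06%) in the core, against 9.81% and 11.3% of all genes.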
